A study of Sus scrofa with 2 samples.

Results

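The transcripts described here encode the proteasome, the protease complex that degrades proteins marked with ubiquitin, and the deubiquitinases, the enzymes that take ubiquitin off proteins. They were chosen by the protein description given with each transcript, which had to name a proteasome, a ubiquitin carboxyl-terminal hydrolase, a ubiquitin thioesterase or a deubiquitinase. The rule found 78 entries among the 12535 genes with at least 1 unique read in either library. Of these, 10 belonged to the 20S core, 16 to the 19S regulatory particle, 7 to the immunoproteasome or the activators, and 5 were assembly chaperones, an inhibitor or an adaptor. The remaining 40 were deubiquitinases. The rule did not find every subunit of the 20S core and the 19S regulatory particle, so counts of subunits are of those listed. A symbol from the gene tables or the description was at hand for 68 entries, and the other 10 are given by their identifier.

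The 20S core is a barrel of alpha and beta rings in which the beta subunits carry the protease sites. The 19S regulatory particle caps the barrel. Its base binds ubiquitin chains and unfolds the substrate with a ring of ATPases, and its lid removes the chain. Other caps, the PA28 and PA200 activators, open the barrel without using ubiquitin, and immune signals replace the protease subunits with those of the immunoproteasome. In skeletal muscle this pathway is best known for the breakdown of myofibrillar protein during wasting.

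The samples were biceps femoris muscle of newborn pigs cloned by somatic cell nuclear transfer, in which the nucleus of a body cell is placed in an egg without its own nucleus. The abnormal cloned group, labelled developmental failure, was a pool of RNA from 3 piglets with an enlarged tongue, trouble standing and walking, and a defect of the navel. The normal cloned group was a pool of 3 piglets by the labels and 4 by the study's methods. Each pool gave 1 library, so no comparison had a replicate check and the spread among piglets cannot be seen. All piglets were delivered by caesarean section. The donor cells of the abnormal piglets and of part of the normal piglets were embryonic fibroblasts of a male large white pig, and those of the other normal piglets were ear fibroblasts of another male, so that donor and condition were partly confounded. The transcript of alpha skeletal actin, ACTA1, took 431743 reads in the abnormal and 390261 reads in the normal library, the largest share of the muscle markers listed.

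The unique reads came to 6.38 M for the abnormal pool and 6.52 M for the normal pool. Levels are given as RPKM, the reads per kb of transcript and per 1e+06 unique reads, and differences as log2 ratios of abnormal over normal RPKM. Transcripts of the mitochondrial genome took 36% of the abnormal and 46.1% of the normal reads, and the 7493 genes that reached 10 reads in each library had a median log2 ratio of 0.36. A ratio of 0.36 was therefore the middle of these genes. A gene was called when the Audic-Claverie test, which asks whether 2 read counts fit a common share of their libraries, gave a false discovery rate (FDR) of at most 0.001 over all genes and the log2 ratio was at least 1 in size. It speaks of these 2 libraries, and not of the conditions. Where 2 values stand together, the abnormal library comes first.

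Of the 78 entries, 19 were called higher in the abnormal library and 0 were called lower. Over all genes 12% were called higher and 1.45% lower. At an FDR of at most 0.05 with the same fold limit 20 entries were higher and 0 lower. The RPKM was higher in the abnormal library for 61 of the 78 entries, beside 66% of all genes. The entries together took 34826 reads, or 0.546% of the abnormal library, and 20133 reads, or 0.309% of the normal library. Rescaling the abnormal library so that the median gene was equal left 8 entries called higher and 2 called lower, beside 6.48% and 3.97% of all genes. The calls comprised 10 proteasome and 9 deubiquitinase entries. The 19S particle held 8 of the proteasome calls, the activators 1, the 20S core 1 and the assembly factors 0.

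**Figure D1:**
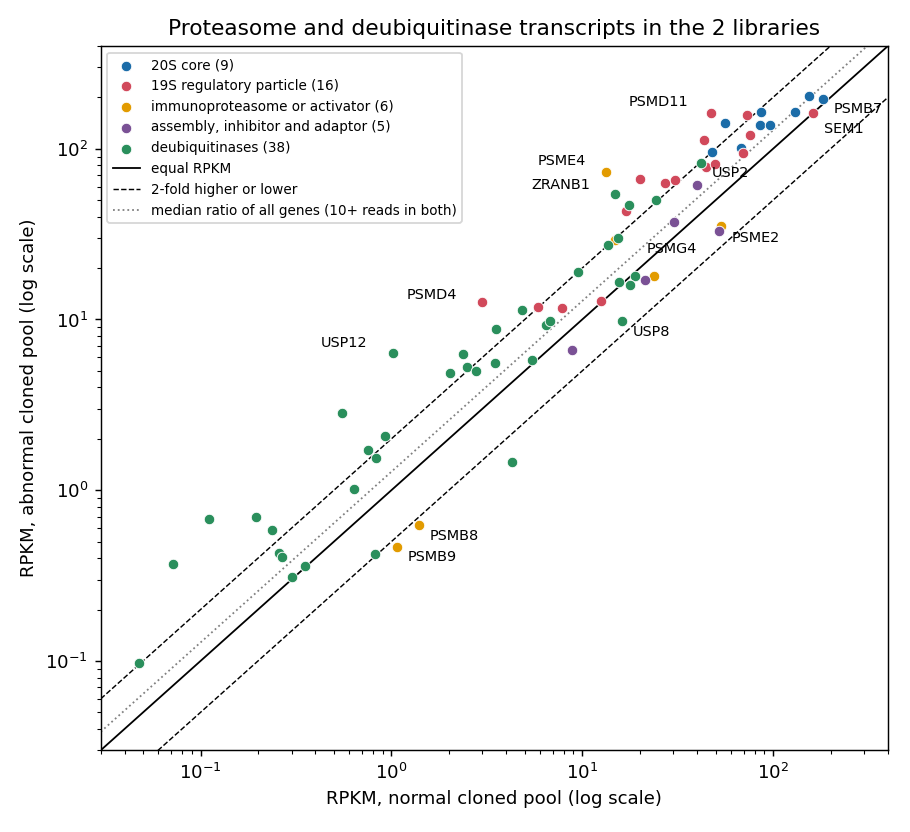
RPKM in the abnormal cloned pool (vertical) against the normal cloned pool (horizontal), both on log scales, for the 74 entries with reads in both libraries, coloured by group; the lines mark equal RPKM, a 2-fold difference and the median ratio of all genes. Most points lie above the line of equal RPKM, PSME4, PSMD4, ZRANB1 and USP12 lie farthest above it among called entries, and PSME2, PSMG4 and USP8 lie below it.

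The 20S core was the most abundant group. A PSMA5-like entry had 0 reads in the abnormal and 1 read in the normal library. Without it, the 9 listed core subunits had RPKM of 95.2 to 203 in the abnormal and 48.1 to 183 in the normal library. All 9 were among the 555 highest transcripts of the abnormal library, and all were among the 888 highest of the normal library. The median log2 ratio over the 10 entries was 0.53 and only PSMA5 was called. PSMA5, the alpha5 subunit, had 923 reads and an RPKM of 141 in the abnormal library and 375 reads and 56.1 in the normal library. Its log2 ratio was 1.33 (95% Wilson interval 1.16 to 1.5, FDR = 1.47e-54 by the Audic-Claverie test). The intervals cover counting error only. PSMA1, the alpha6 subunit, lay just under the fold limit with RPKM of 95.2 and 48.1.

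The beta ring, which holds the catalytic subunits, had a smaller summed ratio than the alpha ring. PSMB5, which carries the chymotrypsin-like site, had RPKM of 101 in the abnormal library against 68.2 in the normal one, a log2 ratio of 0.56. PSMB6, which carries the caspase-like site, had RPKM of 165 and 130, a log2 ratio of 0.34. PSMB7, which carries the trypsin-like site, had RPKM of 196 and 183, and its interval of -0.02 to 0.21 held 0. After rescaling by the median gene PSMB6 and PSMB7 stood at -0.02 and -0.26, so their direction depended on the scaling. The non-catalytic subunit PSMB4 had a larger log2 ratio of 0.92, from RPKM of 164 and 86.7. PSMA6, which had the highest RPKM of the core in the abnormal library, stood at 203 against 153. Summed over subunits, the 5 alpha entries had a log2 ratio of 0.69 (0.63 to 0.76) and the 4 beta entries one of 0.42 (0.35 to 0.49), a difference of 0.28 (0.18 to 0.37). The highest RPKM of the 9 listed subunits was 2.13 times the lowest in the abnormal library and 3.80 times the lowest in the normal library. These transcripts thus lay closer together in the abnormal library, and protein amounts were not measured.

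The 19S regulatory particle showed a larger difference than the core. Of its 16 entries 15 were higher in the abnormal library and 8 were called, beside 66% and 12% of all genes. The median log2 ratio of the 16 was 1.06. After rescaling 14 stayed higher, beside 6233 of the 12535 genes. The 4 that stayed called were PSMD4, PSMD11, PSMD12 and PSMD3, beside 6.48% of all genes. The summed reads of the 19S particle had a log2 ratio of 0.96 (0.92 to 1.0) against 0.57 (0.52 to 0.62) for the 20S core. The difference of 0.39 (0.33 to 0.45) does not depend on how the libraries are scaled.

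The lid led this group, with 5 of its 8 listed subunits called and a median log2 ratio of 1.16. PSMD11, which as Rpn6 clamps the lid to the 20S core, had 1511 abnormal and 455 normal reads. Its RPKM of 161 and 47.5 gave a log2 ratio of 1.76 (1.61 to 1.91, FDR = 9.77e-135 by the Audic-Claverie test). PSMD12, or Rpn5, had RPKM of 66.8 and 19.99, a log2 ratio of 1.74. These had the largest ratios of the lid. PSMD3, or Rpn3, had RPKM of 112 and 43.2, a log2 ratio of 1.38. PSMD6, or Rpn7, had RPKM of 65.6 and 30.6, a log2 ratio of 1.10. PSMD14, the Rpn11 subunit that cuts ubiquitin chains off the substrate, had RPKM of 63.1 and 27, a log2 ratio of 1.23.

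A second entry on the same chromosome, LOC100153067, whose description names the same PSMD14 protein, showed a log2 ratio of 1.36 from 128 and 51 reads. Both were called and count separately among the 8 calls of the 19S particle. The assignment of reads from a sequence they may share is uncertain. The rest of the lid had smaller ratios. PSMD13, or Rpn9, had RPKM of 81.8 and 49.9, a log2 ratio of 0.71. PSMD8, or Rpn12, had RPKM of 94.8 and 69.4, a log2 ratio of 0.45. SEM1, the small Rpn15 subunit that helps the lid to assemble, was level, with RPKM of 161 and 162 and an interval of -0.17 to 0.15. The lid subunits thus differed among themselves by more than their counting error, and SEM1 lay below the median gene. SEM1 was also the highest lid transcript of the normal library and set much of the range there: the highest lid subunit was 8.12 times the lowest in the normal library with SEM1 and 3.47 times without it, against 2.55 times in the abnormal library either way.

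In the base, 2 of 4 listed subunits were called. PSMD4, the Rpn10 receptor that binds ubiquitin chains, had 218 reads and an RPKM of 12.6 in the abnormal library and 53 reads and 2.99 in the normal library. Its log2 ratio of 2.07 (1.64 to 2.50, FDR = 2.15e-24 by the Audic-Claverie test) was the largest in the 19S particle. Its level was far below that of its partners, and the reads covered 54.2% of the listed transcript in the abnormal pool against 35.7% in the normal pool. PSMC2, the Rpt1 ATPase, had RPKM of 157 and 73.3 and was called at a log2 ratio of 1.10. PSMC3, the Rpt5 ATPase, had RPKM of 121 and 75.5, a log2 ratio of 0.68 that was not called. PSMD1, or Rpn2, the scaffold of the base, had RPKM of 78.3 and 44.7, a log2 ratio of 0.81. None of the chaperones that assemble the base was called. PSMD10, known as gankyrin, had 77 and 39 reads, and its log2 ratio of 1.01 missed the FDR limit at 0.00145 by the Audic-Claverie test. PSMD5 had 152 and 104 reads, and PSMD9 had 107 reads in each library.

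**Figure D2:**
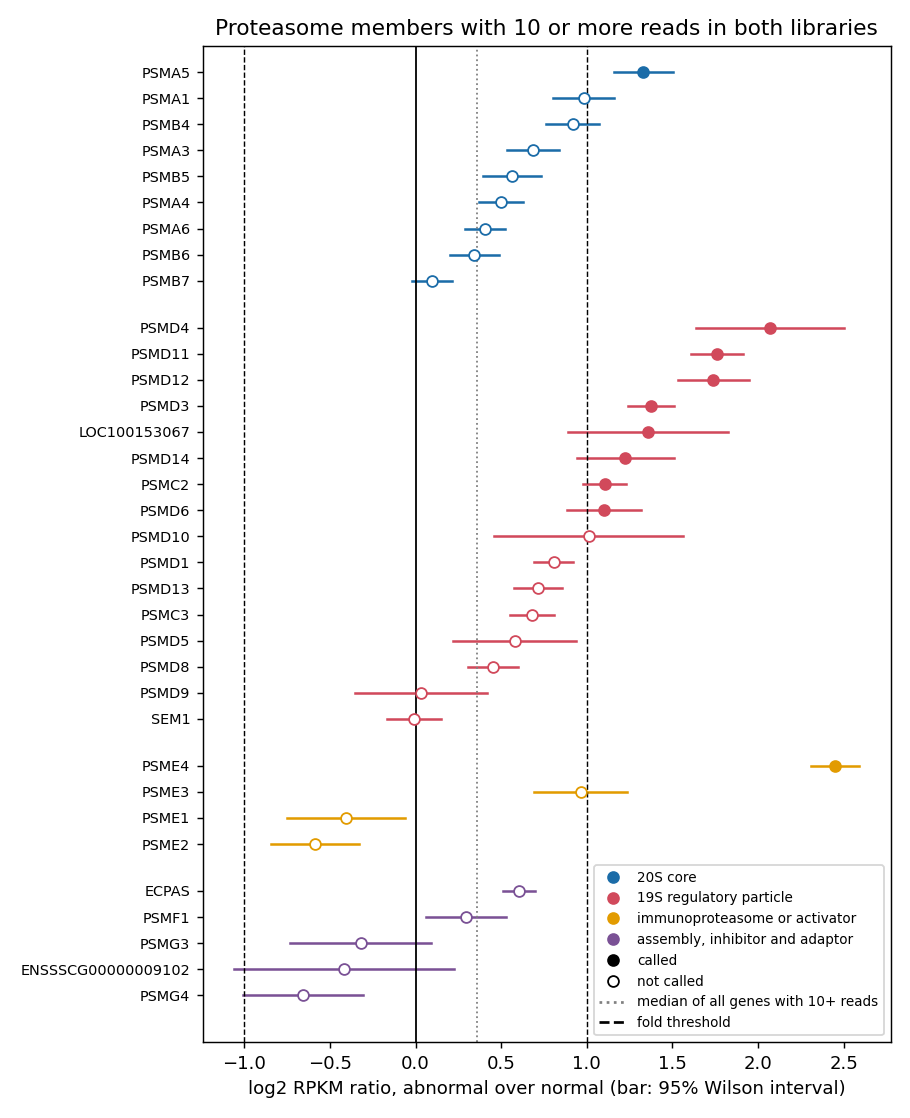
Log2 RPKM ratio, abnormal over normal, of each proteasome entry with at least 10 reads in both libraries, in 4 coloured groups; bars are 95% Wilson intervals that cover counting error only, filled points were called and open points were not, dashed lines mark the fold limit and the dotted line the median of all genes with at least 10 reads. The 20S core runs from 0.10 to 1.33, the 19S particle from -0.01 to 2.07, PSME4 stands alone at 2.45, and PSME1, PSME2 and 3 assembly chaperones lie below 0.

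The activators differed among themselves, and 1 of their 5 entries was called. PSME4, the PA200 activator, a large nuclear protein that caps the 20S core and is known from the breakdown of acetylated histones and from DNA repair, was the most strongly changed proteasome transcript. It had 2581 reads and an RPKM of 72.7 in the abnormal library and 482 reads and 13.3 in the normal library. This was a 5.47-fold difference and a log2 ratio of 2.45 (2.31 to 2.59), with an FDR of at most 2.24e-298 by the Audic-Claverie test. Reads covered 99.0% of its transcript in the abnormal pool against 79.6% in the normal pool. The entry lies on chromosome 3 from 81171082 to 81235690 in Sscrofa9. PSME3, the nuclear PA28 gamma, had RPKM of 29.1 and 14.9, a log2 ratio of 0.96 just under the fold limit.

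PSME1 and PSME2, the alpha and beta subunits of the interferon-inducible PA28 that works beside the immunoproteasome, were lower in the abnormal library and not called. PSME2 had 199 and 306 reads and RPKM of 35.4 and 53.3, a log2 ratio of -0.59 (-0.85 to -0.33). PSME1 had 116 and 157 reads and RPKM of 18.0 and 23.8, a log2 ratio of -0.41 (-0.75 to -0.06). A second PSME1 entry at the same place had 0 reads in the abnormal and 2 reads in the normal library. The 3 entries together had 315 and 465 reads, and their summed log2 ratio lay 1.10 (0.89 to 1.31) under that of the 20S core. Both genes overlap a neighbour on the opposite strand, RNF31 at PSME2 and FAM158A at PSME1, and the library protocol does not keep strand. RNF31 was higher in the abnormal library, with 402 and 284 reads, and FAM158A lower, with 192 and 300 reads. Their part in the PA28 values was not tested.

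The immunoproteasome was close to the limit of detection. PSMB8, which replaces PSMB5, had 7 abnormal and 16 normal reads. PSMB9, which replaces PSMB6, had 3 and 7 reads. Neither was called, and at this depth a difference was not detectable for either entry alone: the intervals of -2.40 to 0.08 and -3.02 to 0.64 both held 0. Summed, they had only 10 and 23 reads, a log2 ratio of -1.17 (-2.22 to -0.12) whose interval covers counting error only. The RPKM of PSMB8 was 0.624 and 1.4 beside 101 and 68.2 for PSMB5, so the constitutive subunit was the far more abundant form in both libraries. The PSMB8 entry also overlaps entries of its neighbours, and its reads covered 4.66% and 11.4% of the transcript. The median log2 ratio of the 7 entries of immunoproteasome and activators was -0.59, and it was 0.28 over the 4 with at least 10 reads in both libraries. Their summed reads, 3219 and 1134, had a log2 ratio of 1.54 (1.44 to 1.63), opposite in sign to the median, and most of these reads were those of PSME4. Without PSME4 the activators had 628 and 629 reads, a log2 ratio of 0.03 (-0.13 to 0.19).

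Most of the listed markers of leukocytes and of the interferon response were also lower in the abnormal library, though few were called. Of 8 leukocyte markers 6 were listed, with 90 abnormal and 143 normal reads in sum. Of these, 2 were higher and 4 lower, and 0 were called. PTPRC, the CD45 antigen of leukocytes, had 5 and 22 reads, and none of the 6 was at 0 in either library. Of 9 interferon-induced genes 7 were listed, 2 higher and 5 lower, with 613 and 677 summed reads. The antiviral gene MX1 was called lower with 26 and 101 reads. So was an entry with the symbol IFIT1, whose description names IFIT3, with 35 and 109 reads. USP18, which removes the interferon-induced modifier ISG15 and does not meet the rule by its description, was called lower with 11 and 39 reads and was looked up after the values were seen. In bulk muscle, fewer cells of a type and less RNA per cell cannot be told apart. The part of these markers in the PSME1, PSME2, PSMB8 and PSMB9 values was not tested.

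Among the 5 factors that assemble, inhibit or escort the proteasome, 2 were higher and 3 lower, and 0 were called. ECPAS, the ECM29 adaptor that ties the 19S particle to the 20S core, was the most abundant, with 2302 and 1548 reads and RPKM of 61.0 and 40.2. PSMF1, the PI31 regulator first known as an inhibitor of the core, had RPKM of 37.2 and 30.4, a log2 ratio of 0.29 that turned to -0.07 after rescaling. The 3 listed chaperones that build the 20S barrel were all lower in the abnormal library. PSMG4 had 105 and 169 reads and RPKM of 33.0 and 52.0, a log2 ratio of -0.66 (-1.01 to -0.31). PSMG3 had 83 and 106 reads, and a PSMG2-like entry (ENSSSCG00000009102) had 33 and 45 reads. Only PSMG4 was called lower after rescaling, and the intervals of the other two held 0.

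The 40 deubiquitinases were lower in level and wider in range than the proteasome subunits. Their median RPKM was 5.12 in the abnormal library against 2.62 in the normal one, and 16 of them had fewer than 10 reads in at least 1 library. The RPKM was higher in the abnormal library for 33 of 40 and 9 were called higher, beside 66% and 12% of all genes. The median log2 ratio of the 40 was 0.98. Their summed reads, 7581 and 4299, had a log2 ratio of 0.85 (0.80 to 0.90). This was 0.28 (0.21 to 0.35) above the 20S core and 0.11 (0.04 to 0.18) under the 19S particle. The deubiquitinases with at least 10 reads in both libraries counted 24, of which 21 were higher, 3 lower and 8 called.

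The ubiquitin-specific protease (USP) family made up 32 of the 40 deubiquitinase entries and held 8 of the 9 calls. Its called share was 25%, close to the 22.5% of all deubiquitinase entries, beside 12% of all genes. The share of all genes called higher rose with transcript length. It was 14.1% from 1500 to 2500 bases, 18.1% from 2500 to 4000 and 25.5% from 4000 bases on. The USP entries had a median length of 2427 bases. After rescaling by the median gene 2 of the 32 USP entries and 3 of all 40 deubiquitinases were called higher, beside 6.48% of all genes. USP28, which stabilises MYC and is linked to the DNA damage response, had 1058 and 405 reads and RPKM of 46.7 and 17.5, a log2 ratio of 1.42 (1.25 to 1.58). USP47, an enzyme of base excision repair, had 1290 and 638 reads and RPKM of 50.3 and 24.4, a log2 ratio of 1.05. These 2 combined a high level with a call. USP54, which the description gives as inactive, had RPKM of 8.76 and 3.52, a log2 ratio of 1.32. USP15, which acts in TGF-beta signalling, had RPKM of 11.4 and 4.86, a log2 ratio of 1.23. A USP32-like entry (ENSSSCG00000017684) had RPKM of 4.84 and 2.03, a log2 ratio of 1.25. USP10, which stabilises p53, had 271 and 138 reads and stood at the fold limit, with a log2 ratio of 1.0.

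USP12 had the largest log2 ratio of the called entries at 2.64, with a wide interval of 1.65 to 3.64. It rested on 55 reads in the abnormal and 9 reads in the normal library (FDR = 1.70e-08 by the Audic-Claverie test). USP4 was listed by 2 overlapping entries on opposite strands that did not move alike. The entry with the symbol USP4 had 52 and 20 reads and was called at 1.41, while LOC100511156, also described as USP4, stood at -0.06 with 164 and 175 reads. Without strand, the reads of these entries cannot be told apart where they overlap, so the call of USP4 is uncertain.

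The other deubiquitinase families had 1 call. ZRANB1, also called TRABID, an OTU family enzyme that edits chains in Wnt signalling, had 926 reads and an RPKM of 54.3 in the abnormal library and 258 reads and 14.8 in the normal library. Its log2 ratio was 1.87 (1.68 to 2.07, FDR = 6.56e-90 by the Audic-Claverie test). It was the only deubiquitinase that stayed called when edgeR's test was given a biological variation of 0.2, together with PSMD4 and PSME4 among all members. In the UCH family, 0 of 4 entries were called. BAP1, a nuclear tumour suppressor that acts on histone H2A, had RPKM of 18.9 and 9.48, a log2 ratio of 0.99. UCHL5, which is bound to the 19S particle, had 248 and 129 reads, a log2 ratio of 0.97, but its reads covered only 33.3% of the transcript in each library. UCHL3 was level at 29 and 28 reads, on 12.6% and 12.1% of its transcript. UCHL1, a hydrolase of neurons, was listed by a stretch of 87 bases with 0 and 3 reads, which is at the floor of 3 reads and allows no fold. BRCC3, the JAMM family enzyme that cuts K63-linked chains, had 31 and 15 reads and was not called. A CYLD-like entry (ENSSSCG00000002837), named for an enzyme that restrains NF-kappaB signalling, had 23 and 13 reads.

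USP2 had the highest RPKM of the 40 deubiquitinase entries in both libraries, 83.0 and 42.0, from 810 and 419 reads. Its log2 ratio of 0.98 (0.81 to 1.15) lay just under the fold limit, as did those of PSMA1, BAP1, UCHL5 and PSME3. The calls therefore divide members of nearly equal ratio. USP5, which recycles unanchored ubiquitin chains, was level at 286 and 275 reads. USP1, which acts in the Fanconi anaemia pathway, had 275 and 316 reads. USP8 had the lowest log2 ratio of the deubiquitinases with at least 10 reads in both libraries. This enzyme of endosomal sorting had 246 and 416 reads and RPKM of 9.76 and 16.2, a log2 ratio of -0.73 (-0.95 to -0.50), and it was called lower after rescaling. USP50, which overlaps it on the opposite strand, had 6 and 1 reads. USP45 had 27 and 12 reads, and its log2 ratio of 1.20 missed the FDR limit. The FAF-X-like entry LOC100517440, described as the USP9X protein, had 547 and 390 reads, a log2 ratio of 0.52.

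**Figure D3:**
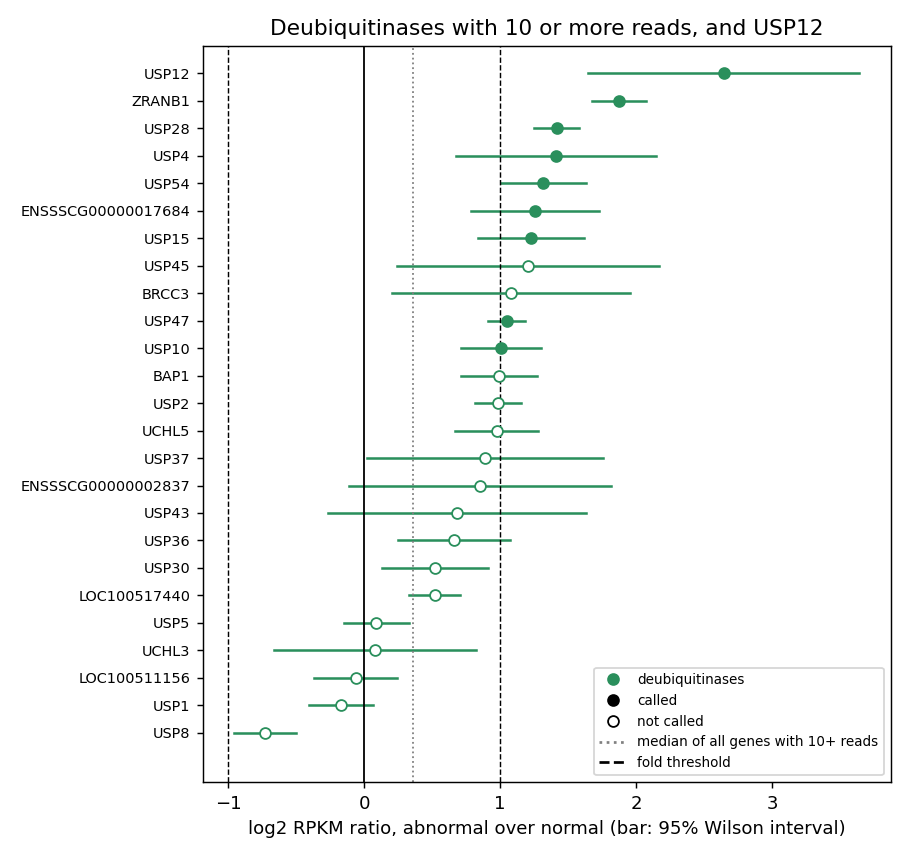
Log2 RPKM ratio, abnormal over normal, of the 24 deubiquitinases with at least 10 reads in both libraries and of USP12, which had 9 reads in the normal library; bars are 95% Wilson intervals that cover counting error only, filled points were called, dashed lines mark the fold limit and the dotted line the median of all genes with at least 10 reads. Ratios run from -0.73 for USP8 to 2.64 for USP12, with narrow bars for ZRANB1, USP28 and USP47 and wide bars for entries of few reads.

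Of the remaining deubiquitinases, USP36 had 119 and 77 reads, a log2 ratio of 0.66 (0.25 to 1.07). USP30 had 125 and 89 reads, a log2 ratio of 0.52 (0.13 to 0.91). USP37 had 29 and 16 reads and USP43 had 22 and 14. None of these was called. The others had fewer than 10 reads in at least 1 library, too few to compare. USP42 had 10 and 2 reads, USP50 6 and 1, USP51 5 and 1, and USP27X 7 and 2. These had log2 ratios above 1 and were not called. USP35 had 4 and 8 reads, a USP24 fragment (ENSSSCG00000003841) 3 and 9, and USP49 4 in each library. USP20 was listed by entries of equal length, USP20 with 2 and 1 reads and LOC100151933 with 12 and 5, which may share sequence. The Ensembl entry of USP7 had 0 and 2 reads, while the Entrez entry of the same gene, whose description lies outside the rule, had 148 and 92.

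Other genes of the pathway whose descriptions do not meet the rule were looked up from lists of 43 symbols. These gave 30 entries, of which 26 were higher, 8 were called higher and 0 lower. Over all genes 66% were higher, 12% were called higher and 1.45% lower. The median log2 ratio of the 30 entries was 0.71. After rescaling by the median gene 5 of them were called higher and 1 lower, beside 6.48% and 3.97% of all genes. Of the ATPases of the base, PSMC6 (Rpt4) was called with RPKM of 89.1 and 36, a log2 ratio of 1.31, and PSMC1 (Rpt2) had RPKM of 133 and 68.7, a log2 ratio of 0.95. With these the base had 6 listed subunits, all higher and 3 called. Among the receptors that carry ubiquitinated proteins to the proteasome or to autophagy, SQSTM1, or p62, had 3266 and 949 reads and RPKM of 262 and 74.6, a log2 ratio of 1.81. RAD23B had RPKM of 85.5 and 41.4, a log2 ratio of 1.04, and DDI2 had 51 and 9 reads. These 3 of the 5 receptors listed were called. NFE2L1, known to switch on proteasome genes when the proteasome is short, was called with 715 and 248 reads, a log2 ratio of 1.56. Its entry of 768 bases was named from the gene tables, and the description gives only a hypothetical protein. DDI2 is known as the protease that activates NFE2L1. NFE2L2, the related factor of the oxidative stress response, had a log2 ratio of 0.75.

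Among the ubiquitin genes, UBB had RPKM of 514 and 478, a log2 ratio of 0.11, and was not called. VCP, the ATPase that pulls ubiquitinated proteins out of complexes, had a log2 ratio of 0.57, and 0 of the 5 entries of VCP and its cofactors were called. Among deubiquitinases with other descriptions, 3 of 13 were called: OTUD4 at 1.88, OTUD6B at 1.67 and MYSM1 at 1.24. A further 10 deubiquitinases were found by symbol after the values were seen, and 2 of these were called, USP34 at 1.05 and USP38 at 2.67 on 25 and 4 reads. USP13, which had the highest RPKM of that list at 96.5 and 78.4, had a log2 ratio of 0.30. OTUB1 had 282 and 168 reads, a log2 ratio of 0.78. USP19, known from muscle wasting, had RPKM of 16.1 and 8.44, a log2 ratio of 0.94.

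A scaling moves all ratios by the same amount and so leaves the order of the groups as it was. The order of deubiquitinases and 20S core turned, with a difference of medians of -0.038 in place of 0.45, when 1 was added to every RPKM, which shrinks the ratios of low transcripts. The median log2 ratios of the 20S core, the 19S particle and the deubiquitinases were 0.53, 1.06 and 0.98 on all reads, and 0.17, 0.70 and 0.62 after the median gene was set equal. The 3 groups stayed above 0 in each scaling, while the size of the 20S core's difference was nearly lost under TMM at 0.14.

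**Figure D4:**
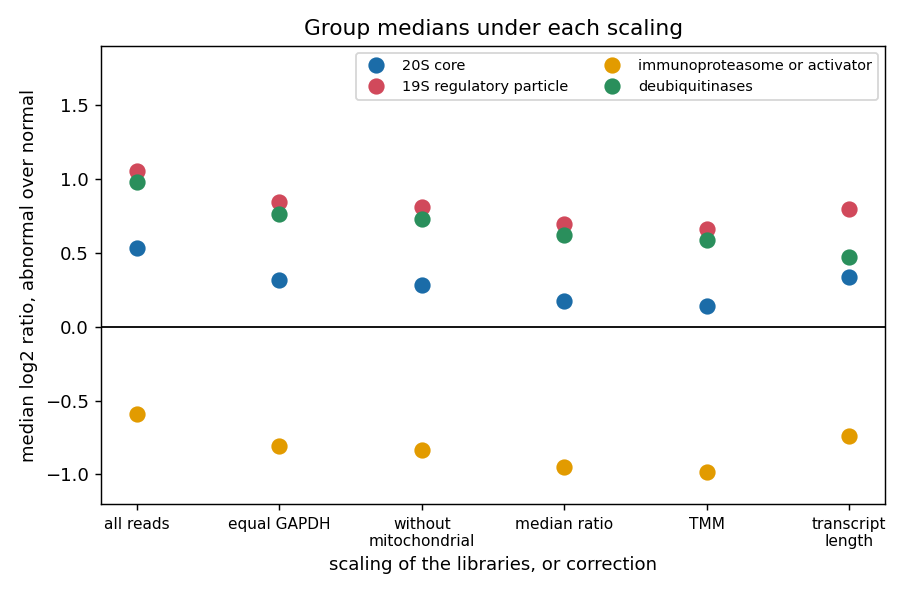
Median log2 ratio, abnormal over normal, of 4 groups (vertical) under 5 scalings of the libraries and after a correction for transcript length (horizontal); points are medians over the entries of a group and have no replicate error. The 20S core falls from 0.53 on all reads to 0.14 under TMM, the 19S particle stays at 0.66 or above, and the immunoproteasome or activator group, whose median turns positive when only entries with at least 10 reads are kept, lies below 0 throughout.

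Transcript length moved with the ratio over all genes. The median log2 ratio was 0.11 in transcripts under 1000 bases and 0.70 in those of 4000 bases or more. The 20S subunits were short, with a median of 1006.5 bases, the 19S entries had a median of 1524 and the deubiquitinases one of 2119 bases. After the running median of genes of like length was taken off, the medians were 0.34 for the 20S core, 0.80 for the 19S particle and 0.47 for the deubiquitinases. The gap between deubiquitinases and 20S core thus shrank from 0.45 to 0.13, while the 19S particle kept its lead. PSMA5 and PSMD11, with transcripts of 1026 and 1471 bases, lay well above genes of their length, and USP8, with 3952 bases, lay well below. The part of transcript length in the ratios of single members was not tested.

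**Figure D5:**
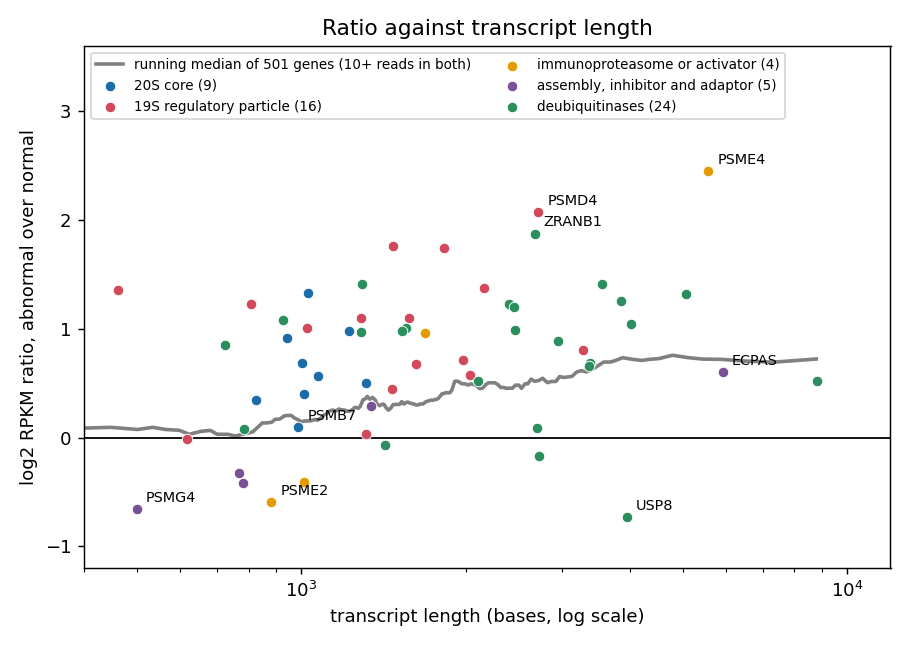
Log2 RPKM ratio, abnormal over normal, against transcript length in bases (log scale) for the 58 entries that reached 10 reads in each library; the grey line is the running median over genes of like length. The line rises with length, most 19S entries lie above it, 20S entries lie above or close to it, and PSMG4, PSME2 and USP8 lie below it.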

How the data were processed

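RNA of biceps femoris muscle was pooled per group before library construction, and 1 poly(A) library per pool was sequenced. The authors filtered the reads and aligned them to the Sscrofa9 transcripts (SOAPaligner/soap2, up to 2 mismatches). The deposited count is that of unique reads per transcript. The authors also deposited RPKM and the percent of each transcript covered by reads. The deposited tables were joined on gene identifier, and a transcript absent from a table was taken as 0 reads (6.38 M and 6.52 M reads in all, so that 3 reads were 0.470 and 0.460 RPM). Symbols came from RefSeq tables; 61 members carried Entrez and 17 Ensembl identifiers.

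The log2 ratio of RPKM (0 set to 0.001) and the two-sided Audic-Claverie test with Benjamini-Hochberg adjustment over 12535 genes were computed, and genes were called where the FDR did not exceed 0.001 and the fold was 2 or more. Each 95% interval is Wilson's, for the share of reads that were abnormal. Groups were described by counts, medians and summed reads without a test. Named were every called proteasome member, the extremes and the most abundant members of each group, all activators, and fixed enzymes such as UCHL1 and BAP1, and every called gene of the other pathway lists. Extremes were taken among entries with at least 10 reads in both libraries, and other genes, USP12 among them, were named after their values were seen. Members and lists were chosen with earlier results of these data known. The alternatives were 4 scalings, a minimum of 10 reads, Fisher's and edgeR's exact tests (the latter with assumed variation of 0.2 or 0.4), other thresholds, 1 added to every RPKM, and Entrez entries only. The length correction and the changes of group membership were chosen after seeing the data. Tests were tried on simulated data. Python 3.11.15, numpy 2.4.6, pandas 2.3.3, scipy 1.17.1, matplotlib 3.10.9, R 4.3.3 and edgeR 4.0.16 were used. Sequences and promoters were not analysed here. Single values of some listed genes are not reported here.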

Additional observations from a re-analysis of the deposited data

How the results depend on the processing

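With 1 library per group no replicate could be left out and no dispersion estimated. No paired analysis was possible because each group had 1 library. Of the 26 called genes picked by the naming rule, which leaves out USP12, USP34, USP38, USP18, MX1 and the IFIT1 entry, 26 stayed called under Fisher's exact test and under an FDR of at most 0.05, 12 under median rescaling, 11 under TMM, 20 with equal GAPDH, 17 on totals without mitochondrial transcripts, 4 in edgeR's exact test with an assumed variation of 0.2 and 0 with 0.4.

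Members called higher numbered 19 on all reads, 8 under median rescaling, 7 under TMM, 12 without mitochondrial transcripts, 3 and 0 in edgeR's exact test with assumed variation of 0.2 and 0.4, and 3 at a log2 ratio of at least 2. Members called lower numbered 2 under median rescaling and 2 under TMM, against 0. Deubiquitinases called higher numbered 3, 3, 5, 1, 0 and 1 in the same order of settings, against 9, and the 20S and 19S members called higher numbered 4 and 3 under median rescaling and TMM, 1 and 0 in edgeR's test, and 1 at a log2 ratio of at least 2, against 9.

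Median log2 ratios under median rescaling, TMM, totals without mitochondrial transcripts, equal GAPDH and length correction were 0.17, 0.14, 0.29, 0.32 and 0.34 for the 20S core, 0.70, 0.66, 0.81, 0.84 and 0.80 for the 19S particle, -0.95, -0.98, -0.84, -0.80 and -0.74 for the immunoproteasome and activators, and 0.62, 0.58, 0.73, 0.76 and 0.47 for the deubiquitinases. With 1 added to every RPKM the 19S median was 0.99 and that of the deubiquitinases 0.49, and the deubiquitinases then lay under the 20S core (a difference of -0.038), since the addition shrinks the ratios of low transcripts; under length correction they lay 0.13 above it. Entrez entries alone gave 1.01 for the 19S particle and -0.41 for the immunoproteasome and activators. The latter turned to 0.28 when at least 10 reads were asked for, which drops PSMB8, PSMB9 and the second PSME1 entry, and fell to -0.88 without PSME4. The 19S median was 1.10 without its chaperones, and the deubiquitinase median 0.91 with the 10 added by symbol. Depth limits PSMB8, PSMB9, UCHL1 and the 16 deubiquitinases of fewer than 10 reads.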

Other observations

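Markers of the other cell types of muscle did not move together. Of 5 fibroblast markers 4 were listed, and their reads summed to 16916 in the abnormal and 19782 in the normal pool. Of these 1 was higher, 3 were lower and 0 were called; the most abundant, the collagen COL3A1, had RPKM of 459 and 537. Of 4 endothelial markers 3 were listed, with 972 and 909 reads, 2 higher, 1 lower and 0 called. Of 6 markers of neurons or Schwann cells 3 were listed, 2 higher, 1 lower and 0 called. Of 8 skeletal muscle markers 1 was found by symbol, and 7 entries were matched by symbol or description, 2 higher and 5 lower. They include CCDC171, described as similar to myosin-3, with 1 and 5 reads, and a myosin-8-like entry (ENSSSCG00000018004) with 0 and 1. Of the 7 entries 0 were called higher and 1 lower, a short titin entry (ENSSSCG00000016003) with 304 and 678 reads. The main titin entry (ENSSSCG00000016001) had 119816 and 128618 reads.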
